A study of Mus musculus with 6 samples.

Results

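The genes described here are 42 axon guidance genes: semaphorins with their neuropilin and plexin receptors, ephrins with their Eph receptors, netrin with its receptors, Slits with their Robo receptors, and the Srgap proteins that act behind Robo. They were matched by symbol among the 27179 genes of the deposited table. The list itself was drawn up with earlier results of these data known. All 42 were found, and all 42 passed the filter of a mean of at least 1 CPM (normalized reads scaled to library size), which left 13885 genes for testing. Poly(A) RNA was sequenced from the cortex of E18.5 embryos of the C57BL/6N mouse strain, and the design asks what loss of the actin-binding protein CAP1 does to gene expression. The Control group (3 libraries, FF1, FF2 and FF4) was Cap1 flx/flx, with both alleles of Cap1 flanked by recombination sites and no Cre. The CAP1-KO group (3 libraries, FCRE3, FCRE4 and FCRE5) was Cap1 flx/flx with Nestin-CRE, a recombinase under control of Nestin, a gene of neural progenitors. Cells that do not descend from these progenitors, such as microglia, are not its target. No library with Cre and unflanked Cap1 is among these groups, so presence of Cre and loss of CAP1 cannot be told apart. The labels call the libraries biological replicates and say nothing of litters or pooling. If they share a source, p-values measure only the spread between these libraries.

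Axon guidance molecules steer growing axons and migrating neurons by attraction or repulsion. Most secreted class 3 semaphorins bind a neuropilin that signals through a plexin, while membrane-bound semaphorins bind plexins directly. Ephrins are tethered to the cell surface, A-class by a lipid anchor and B-class by a transmembrane segment, and they bind Eph receptor tyrosine kinases on the neighbouring cell. Netrin attracts through Dcc and repels when an Unc5 receptor takes part, and Slits repel through Robo receptors. All of these receptors act in the end on the actin cytoskeleton of the growth cone. In the cortex at this age they are known for the layout of callosal, corticofugal and thalamocortical tracts.

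Depth ranged from 32443864 to 36302598 recovered reads per library, and the lowest count of a member in any library was 281 reads. Cap1, the check of the labels, measured 166 to 194 CPM in the 3 Control libraries and 82.9 to 86.6 CPM in those of CAP1-KO. It fell, with a log2 fold change of -1.10 (limma adjusted p = 2.83e-04), and no library went against its label. The Control library FF4 stood apart: its reads differed from those of FF1 and FF2 by a chi-square per gene of 23.9 and 31.5, against 8.71 between FF1 and FF2 and 5.54 to 10.8 between CAP1-KO libraries. Summed upper layer neuron markers (9 of 9 in the table, none at 0) measured 1818 CPM in FF4 and 2543 and 2608 CPM in FF1 and FF2, against 1829 to 1953 CPM in CAP1-KO. Deep layer markers (10 of 10, none at 0) measured 1333 CPM in FF4, 1635 and 1682 CPM in FF1 and FF2, and 1259 to 1393 CPM in CAP1-KO. Striatal markers (13 of 13, none at 0) measured 574 CPM in FF4, 389 and 398 CPM in FF1 and FF2, and 510.1 to 551 CPM in CAP1-KO. Interneuron markers (12 of 12, none at 0) measured 817 CPM in FF4, 593 and 533 CPM in FF1 and FF2, and 750.2 to 819.6 CPM in CAP1-KO. Other lists differed between the groups. Summed choroid plexus markers (6 of 6 in the table, none at 0) measured 1.52 to 5.35 CPM in Control and 53.5 to 117 CPM in CAP1-KO. Only 4 of these 6 passed the filter, with log2 fold changes of 0.82 to 6.08 (median 1.18), and 1 was called higher. Microglia markers (9 of 9, none at 0) measured 57.3 to 72.9 CPM in Control and 83.7 to 104 CPM in CAP1-KO. Meningeal fibroblast markers (9 of 9, none at 0) measured 16.7 to 17.9 CPM in Control and 18.4 CPM in FCRE3, but 99.5 and 88.5 CPM in FCRE4 and FCRE5. Oligodendrocyte precursor markers (5 of 5, none at 0) had 5 negative log2 fold changes, at 161 to 175 CPM and 125 to 161 CPM. The part of this tissue makeup in the results below was not tested. Members called without FF4 are given with and without it. The fit without FF4 holds only FF1 and FF2 as Control, and it called 18.9% of all tested genes lower and 9.36% higher (limma). In whole tissue, fewer cells of a type and less RNA per cell cannot be told apart.

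No axon guidance member passed the test between CAP1-KO and Control. Most measured slightly lower in CAP1-KO, and each of the 7 families held such members. Among the 42 members 0 were called higher and 0 lower (limma, Benjamini-Hochberg adjusted p under 0.05; 0.562% of all tested genes were called higher and 0.403% lower), and limma-voom on recovered reads called 0 as well. The lowest adjusted p was 0.0631, for Sema5a (limma). At an unadjusted p under 0.05 there were 2 members higher and 16 lower, or 4.76% and 38.1% of the members, against 7.74% and 15.3% of all tested genes. The log2 fold change was negative for 32 members and positive for 10, with a median of -0.16 (range -0.61 to 0.40), while the median of all tested genes was -0.01 and 51.7% were negative. With scaling to total reads, which moved the median of all genes to 0.06, 30 members were negative. The groups did not overlap, with CAP1-KO the lower, for 13 members (31.0%; 14.6% of all tested genes) and with CAP1-KO the higher for 2, Sema5a and Slit2 (4.76%; 11.1% of all tested genes). Genes with the widest non-overlapping differences lie on several chromosomes (GRCm38.p6, RefSeq): Sema5a at chr15:32244813-32696341, Sema7a at chr9:57939596-57962865, Plxna1 at chr6:89316313-89362613, Efna3 at chr3:89313899-89322939, Unc5a at chr13:54945151-55006018, Unc5b at chr10:60762594-60831581 and Slit3 at chr11:35121456-35708507. The shares above describe the listed genes, and a missed threshold does not show that a gene stayed the same.

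**Figure D1:**
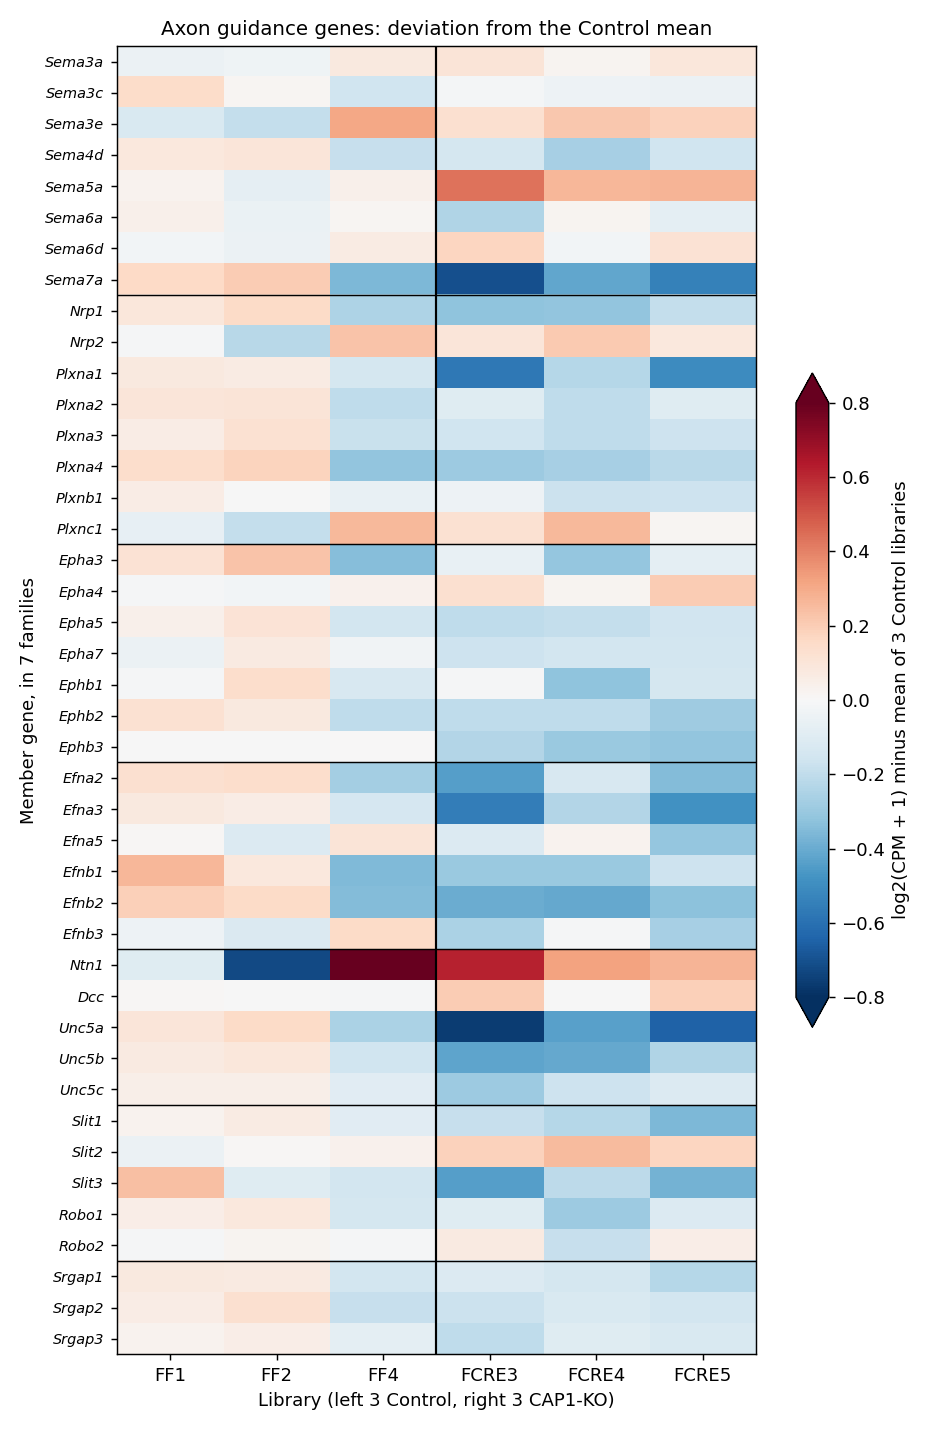
Deviation of each of the 42 genes (rows, in 7 families) in each of the 6 libraries (columns) from the mean of the 3 Control libraries, on the log2(CPM + 1) scale. FF4 shares the colour of the CAP1-KO libraries in many rows, while rows such as Sema5a, Ephb3 and Slit2 have 3 like Control libraries.

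Of the 8 semaphorins, 4 had a negative and 4 a positive log2 fold change (median 0.02). Sema7a, a lipid-anchored semaphorin that acts through integrins and Plxnc1, measured 142 CPM in FF1, 147 in FF2 and 99.1 in FF4 (Control) and 78.0 CPM in FCRE3, 95.5 in FCRE4 and 87.3 in FCRE5 (CAP1-KO). All 3 CAP1-KO libraries were lower than all 3 Control libraries, but FF4 stood closer to FCRE4 than to the other Control libraries. Control averaged 129 ± 26.4 CPM and CAP1-KO 87.0 ± 8.77 CPM (SD, n = 3 each), a log2 fold change of -0.55 (SE 0.15, limma adjusted p = 0.108). It was -0.73 without FF4 (limma adjusted p = 3.65e-04). Sema5a, a transmembrane semaphorin with thrombospondin repeats, measured 47.5 CPM in FF1, 44.3 in FF2 and 48.1 in FF4 (Control) and 63.3 CPM in FCRE3, 56.3 in FCRE4 and 56.6 in FCRE5 (CAP1-KO). Here the 3 Control libraries were alike and all 3 CAP1-KO libraries were higher, by a log2 fold change of 0.33 (SE 0.06, limma adjusted p = 0.0631). It was 0.35 without FF4 (limma adjusted p = 0.00495). Of all 42 members, Sema5a alone passed in the authors' deposited table, with an FDR of 0.0461 and a log2 fold change of 0.33.

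The groups overlapped for the 3 listed class 3 semaphorins (Sema3a, Sema3c and Sema3e), secreted cues that repel or attract cortical axons. Sema3c measured 111 CPM in FF1, 102 in FF2 and 90.1 in FF4 (Control) and 99.5 CPM in FCRE3, 97.9 in FCRE4 and 97.2 in FCRE5 (CAP1-KO), a log2 fold change of -0.04 that turned to 0.030 with scaling to total reads. All 3 CAP1-KO libraries lay inside the Control range. Sema3a, a repellent for many cortical axons, had means of 60.1 ± 2.94 CPM and 63.2 ± 2.03 CPM (n = 3 each). Sema3e, a ligand of Plxnd1 and the member of lowest length-scaled level, measured 9.01 CPM in FF1, 8.54 in FF2 and 12.5 in FF4 (Control) and 10.9 CPM in FCRE3, 11.7 in FCRE4 and 11.4 in FCRE5 (CAP1-KO), so FF4 was the highest of the 6 libraries. Its log2 fold change was 0.18 against all 3 Control libraries, -0.13 against FF4 alone and 0.33 without FF4 (limma adjusted p = 0.454, 0.792 and 0.0171).

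The transmembrane semaphorins Sema4d, Sema6a and Sema6d also overlapped between groups. Sema4d, the ligand of Plxnb1, measured 46.9 CPM in FF1, 47.3 in FF2 and 38.8 in FF4 (Control) and 40.0 CPM in FCRE3, 36.6 in FCRE4 and 39.5 in FCRE5 (CAP1-KO). FF4 lay within the CAP1-KO range, and the log2 fold change was -0.19 (limma adjusted p = 0.229) and -0.28 without FF4 (limma adjusted p = 0.00739). Sema6a, a ligand and receptor partner of Plxna2 and Plxna4, and Sema6d, a ligand of Plxna1, had log2 fold changes of -0.10 and 0.09, with 0 calls in 13 alternatives each.

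Because the series title names SRF, the transcription factor that binds the CArG box, the promoters of the members were read for that box. RefSeq promoter windows (GRCm38.p6, 250 bases before to 50 after a gene start) were matched for 35 of the 42 members. A CArG box, read on both strands, was found for 2 of these 35 members (5.71%), Sema4d and Robo1, and for 1.81% of all 27025 genes with a window. Both boxes are printed with their flanks and the box in capitals, beside those of Srf and Vcl, genes of the SRF programme that were called higher in these libraries.
Sema4d: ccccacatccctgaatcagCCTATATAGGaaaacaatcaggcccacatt
Robo1: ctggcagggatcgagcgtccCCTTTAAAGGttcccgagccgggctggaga
Srf: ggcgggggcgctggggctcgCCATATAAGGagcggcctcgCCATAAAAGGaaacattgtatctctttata
Vcl: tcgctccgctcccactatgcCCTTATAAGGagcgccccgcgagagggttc
The Sema4d stretch (chr13:51749012-51749060, minus strand) belongs to 1 of its 3 annotated starts, with the box beginning 231 bases before that start. In Robo1 (chr16:72663069-72663118, plus strand) the box begins 60 bases before the start of its only window. That start lies inside the span of the gene (chr16:72027518-73047491), so the promoter at its outermost start was not read. Srf (chr17:46556195-46556264, minus strand) holds 2 boxes, and Vcl (chr14:20929151-20929200, plus strand) 1. Srf had a log2 fold change of 0.69 and Vcl of 1.48 (limma adjusted p = 0.00515 and 0.00177). Srf and Vcl were picked by hand with earlier results of these data known, so their calls are no test of the box. The values for Sema4d (-0.19) and Robo1 (-0.17) were negative and not called. A match is a description of letters, not a site.

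Ephrins, the other large group of ligands, had a negative log2 fold change for all 6 members (median -0.28), and 0 were called. Efna3, a lipid-anchored ephrin, measured 39.1 CPM in FF1, 38.6 in FF2 and 33.6 in FF4 (Control) and 25.0 CPM in FCRE3, 31.3 in FCRE4 and 26.2 in FCRE5 (CAP1-KO). The groups did not overlap, with FCRE4 the nearest to Control, and the log2 fold change was -0.42 (SE 0.10, limma adjusted p = 0.0881). It was called without FF4 (-0.49, limma adjusted p = 0.00460) and without FCRE4 (-0.52, limma adjusted p = 0.0446). Leaving out FCRE4 called Efna3 and Plxna1 lower among the members and 0 higher, with 1.26% of all tested genes called lower and 0.562% higher. Efnb2, a transmembrane ephrin of neurons and arterial endothelium, measured 341 CPM in FF1, 333 in FF2 and 235 in FF4 (Control) and 227 CPM in FCRE3, 225 in FCRE4 and 238 in FCRE5 (CAP1-KO). FF4 lay inside the CAP1-KO range, far from FF1 and FF2, and the log2 fold change of -0.38 (limma adjusted p = 0.156) became -0.03 against FF4 alone (limma adjusted p = 0.933) and -0.55 without it (limma adjusted p = 1.13e-04).

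Efnb3, a midline ephrin that stops corticospinal axons, had the highest length-scaled level of the 42. Its values were 260.0 CPM in FF1, 247 in FF2 and 298 in FF4 (Control) and 225 CPM in FCRE3, 266 in FCRE4 and 223 in FCRE5 (CAP1-KO). FF4 was the highest of all 6 libraries and FCRE4 lay above FF1 and FF2, so the groups overlapped (log2 fold change -0.18, limma adjusted p = 0.299). The X-linked ephrin Efnb1 measured 95.6 CPM in FF1, 84.4 in FF2 and 61.9 in FF4 (Control) and 64.5 CPM in FCRE3, 64.4 in FCRE4 and 70.7 in FCRE5 (CAP1-KO), with FF4 below every CAP1-KO library. Its log2 fold change was -0.25 (limma adjusted p = 0.327), -0.43 without FF4 (limma adjusted p = 0.00191), -0.12 without FF1 (limma adjusted p = 0.719) and -0.31 with the Xist level as a covariate (limma adjusted p = 0.479). The level of Xist, which silences 1 X chromosome in females, was 2398 to 2653 CPM in CAP1-KO and 2296 CPM in FF2, but FF1 and FF4 had 0.577 and 2.05 CPM, so embryo sex was not balanced between groups. Efna5, which repels thalamic and cortical axons, and Efna2 also overlapped between groups, with log2 fold changes of -0.13 and -0.31 (limma adjusted p = 0.453 and 0.202). Without FF4, Efna2 was at -0.44 (limma adjusted p = 0.00681).

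Ntn1, the netrin that attracts commissural axons, showed the widest spread within Control relative to its mean. It measured 23.1 CPM in FF1, 14.6 in FF2 and 44.3 in FF4 (Control) and 38.4 CPM in FCRE3, 31.3 in FCRE4 and 30.1 in FCRE5 (CAP1-KO). FF4 was the highest of the 6 libraries and FF2 the lowest, so the CAP1-KO libraries lay inside the Control range. The log2 fold change was 0.40 against Control (SE 0.33, limma adjusted p = 0.504), -0.41 against FF4 alone (limma adjusted p = 0.509) and 0.81 without FF4 (limma adjusted p = 0.00804). Its sign thus turned with the Control library used. Striatal and interneuron markers were also highest or near highest in FF4, as given above, and their part in the Ntn1 values was not tested.

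The 3 Slits, secreted repellents, differed in sign. Slit2, which guides callosal and corticofugal axons, measured 32.2 CPM in FF1, 33.6 in FF2 and 34.2 in FF4 (Control) and 38.0 CPM in FCRE3, 39.9 in FCRE4 and 37.7 in FCRE5 (CAP1-KO). All CAP1-KO libraries were higher and Control libraries were alike (log2 fold change 0.20, SE 0.05, limma adjusted p = 0.103). Slit3 measured 14.6 CPM in FF1, 11.4 in FF2 and 10.9 in FF4 (Control) and 8.74 CPM in FCRE3, 10.4 in FCRE4 and 9.18 in FCRE5 (CAP1-KO), with no overlap but with FF1 well above the other Control libraries (log2 fold change -0.34, limma adjusted p = 0.150). Slit1, the Slit of highest length-scaled level here, measured 107 CPM in FF1, 109 in FF2 and 98.1 in FF4 (Control) and 92.0 CPM in FCRE3, 89.1 in FCRE4 and 81.4 in FCRE5 (CAP1-KO), also without overlap (log2 fold change -0.26, limma adjusted p = 0.0971). Against FF4 alone the 3 kept their signs, at -0.17 for Slit1, 0.17 for Slit2 and -0.20 for Slit3, and none was called. Without FF4 they were -0.30, 0.22 and -0.41 (limma adjusted p = 0.00509, 0.0192 and 0.0306).

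**Figure D2:**
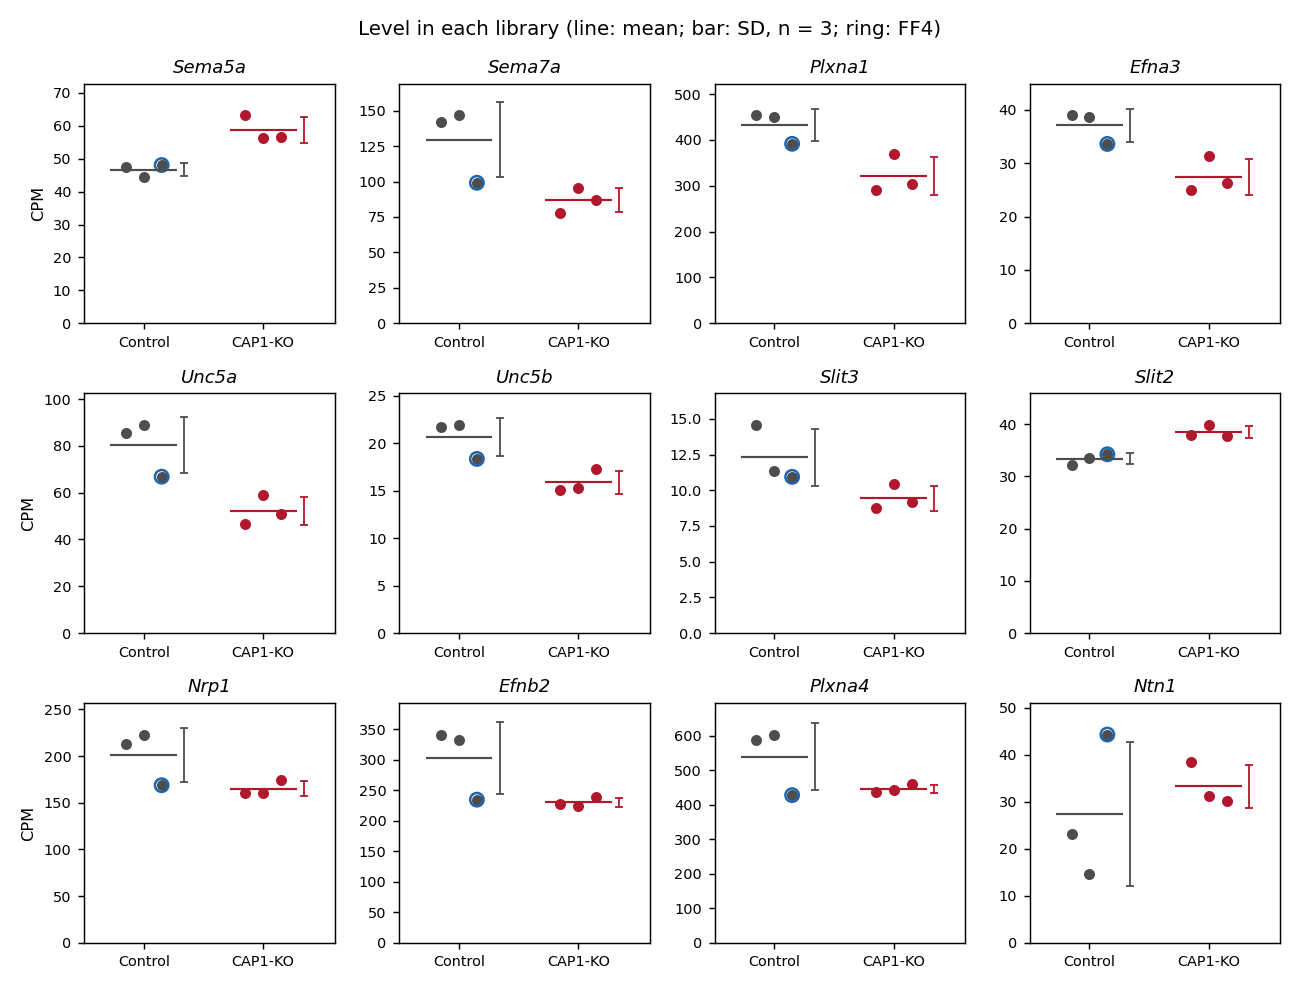
CPM of 12 members in each library; points are libraries, lines are group means and bars are SD (n = 3 each), with FF4 ringed. Sema5a and Slit2 lie higher in CAP1-KO, Sema7a, Plxna1, Efna3, Unc5a, Unc5b and Slit3 lower, and in Nrp1, Efnb2 and Plxna4 FF4 sits at the CAP1-KO level.

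Receptors had a negative log2 fold change in 17 of 21 (median -0.17), and 0 were called. The netrin receptors of the Unc5 family stood lower in CAP1-KO without overlap for the 3 listed members (14.6% of all tested genes did so). Unc5d, a family member outside the 42 that was chosen after its values were seen, overlapped between groups, with a log2 fold change of 0.06 against Control and 0.19 against FF4 alone (limma adjusted p = 0.663 and 0.536). Unc5a, a repulsive netrin receptor of neurons, measured 85.6 CPM in FF1, 89.1 in FF2 and 66.8 in FF4 (Control) and 46.8 CPM in FCRE3, 58.8 in FCRE4 and 50.7 in FCRE5 (CAP1-KO). FF4 and FCRE4 were the neighbouring libraries of the 2 groups, and the CAP1-KO mean was 64.8% of that of Control (n = 3 each). Its log2 fold change of -0.61 was the lowest of the 42 (SE 0.12, limma adjusted p = 0.0676), and it was -0.36 against FF4 alone (limma adjusted p = 0.515) and -0.74 without FF4 (limma adjusted p = 5.66e-04).

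Unc5b, a receptor of neurons and of endothelial tip cells, measured 21.7 CPM in FF1, 21.9 in FF2 and 18.3 in FF4 (Control) and 15.1 CPM in FCRE3, 15.3 in FCRE4 and 17.3 in FCRE5 (CAP1-KO). The log2 fold change was -0.36 (SE 0.09, limma adjusted p = 0.0974). Endothelial markers (10 of 10 tested, none at 0) had 10 negative log2 fold changes, with a summed level of 222 to 241 CPM in Control and 177 to 205 CPM in CAP1-KO, and their part in the values of Unc5b, Efnb2 and Nrp1 was not tested. Unc5c had means of 58.9 ± 3.29 CPM and 51.5 ± 3.35 CPM (n = 3 each; log2 fold change -0.19, limma adjusted p = 0.151). Without FF4, Unc5b was at -0.44 and Unc5c at -0.24 (limma adjusted p = 0.00414 and 0.0200). Dcc, the attractive netrin receptor, measured 135 CPM in FF1, 134 in FF2 and 133 in FF4 (Control) and 154 CPM in FCRE3, 133 in FCRE4 and 152 in FCRE5 (CAP1-KO). Its Control libraries were nearly equal, FCRE4 lay among them and FCRE3 and FCRE5 above (log2 fold change 0.13, limma adjusted p = 0.259).

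The plexins, which carry the semaphorin signal into the cell through their GAP domain, had negative values for 5 of the 6 listed. Plxna1 measured 454 CPM in FF1, 450.4 in FF2 and 391 in FF4 (Control) and 290.0 CPM in FCRE3, 368 in FCRE4 and 304 in FCRE5 (CAP1-KO). The groups did not overlap, and FCRE4 stood between FF4 and the other CAP1-KO libraries. Control averaged 432 ± 35.4 CPM and CAP1-KO 321 ± 41.6 CPM (SD, n = 3 each; log2 fold change -0.43, SE 0.10, limma adjusted p = 0.0886). It was called without FF4 (-0.50, limma adjusted p = 0.00354) and without FCRE4 (-0.54, limma adjusted p = 0.0393). Plxna4, a Sema3a receptor of sensory and cortical axons, measured 587 CPM in FF1, 603 in FF2 and 428 in FF4 (Control) and 436 CPM in FCRE3, 443 in FCRE4 and 460.0 in FCRE5 (CAP1-KO). FF4 was the lowest of all 6 libraries, and the log2 fold change of -0.26 against Control was 0.06 against FF4 alone and -0.42 without it (limma adjusted p = 0.261, 0.820 and 3.48e-04).

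Plxna3, an X-linked gene, and the autosomal Plxna2 had the highest length-scaled levels of the members after Efnb3. Plxna3 measured 480.5 CPM in FF1, 501 in FF2 and 407 in FF4 (Control) and 413 CPM in FCRE3, 399.6 in FCRE4 and 410.3 in FCRE5 (CAP1-KO), where FF4 lay within the CAP1-KO range (log2 fold change -0.18, limma adjusted p = 0.237, and -0.29 with the Xist covariate, limma adjusted p = 0.264). Plxna2 had means of 652 ± 76.2 CPM and 591 ± 24.9 CPM (n = 3 each; log2 fold change -0.13). Without FF4 the values were -0.27 for Plxna3 and -0.23 for Plxna2 (limma adjusted p = 0.00191 and 0.00658). Plxnb1, the Sema4d receptor, measured 240.3 CPM in FF1, 230.0 in FF2 and 222 in FF4 (Control) and 224 CPM in FCRE3, 205 in FCRE4 and 205 in FCRE5 (CAP1-KO), and FCRE3 lay above FF4 (log2 fold change -0.13, limma adjusted p = 0.224). Plxnc1, the plexin that binds Sema7a, measured 105 CPM in FF1, 96.6 in FF2 and 132 in FF4 (Control) and 120.1 CPM in FCRE3, 133 in FCRE4 and 112 in FCRE5 (CAP1-KO), and its log2 fold change was 0.13 (limma adjusted p = 0.527). Its groups overlapped, and the value was -0.12 against FF4 alone and 0.26 without it (limma adjusted p = 0.776 and 0.0266).

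The neuropilins, which bind class 3 semaphorins and VEGF, differed in sign. Nrp1 measured 213 CPM in FF1, 223 in FF2 and 169 in FF4 (Control) and 160.0 CPM in FCRE3, 161 in FCRE4 and 175 in FCRE5 (CAP1-KO). FF4 lay within the CAP1-KO range, and the log2 fold change was -0.28 (limma adjusted p = 0.166), -0.03 against FF4 alone and -0.40 without it (limma adjusted p = 0.937 and 8.80e-04). Nrp2 measured 143 CPM in FF1, 123 in FF2 and 169 in FF4 (Control) and 154 CPM in FCRE3, 166 in FCRE4 and 153 in FCRE5 (CAP1-KO), with FF4 the highest and FF2 the lowest of the 6 (log2 fold change 0.13, limma adjusted p = 0.498). The value was -0.10 against FF4 alone and 0.25 without FF4 (limma adjusted p = 0.747 and 0.0265).

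Eph receptors had a negative value for 6 of 7, and 4 of the 7 did not overlap between groups, all lower: Epha5, Epha7, Ephb2 and Ephb3 (14.6% of all tested genes were lower without overlap and 11.1% higher). Ephb3, one of the least abundant members per length, had the tightest Control libraries relative to their mean, at 14.4 CPM in FF1, 14.3 in FF2 and 14.4 in FF4, and CAP1-KO measured 12.1 CPM in FCRE3, 11.5 in FCRE4 and 11.4 in FCRE5. All CAP1-KO libraries were lower by a similar amount, also than FF4 (log2 fold change -0.28, SE 0.06, limma adjusted p = 0.0840; -0.29 against FF4 alone, limma adjusted p = 0.547). Epha7, which sorts thalamic and cortical axons, measured 139 CPM in FF1, 152 in FF2 and 142 in FF4 (Control) and 128 CPM in FCRE3, 129.9 in FCRE4 and 130.4 in FCRE5 (CAP1-KO). The CAP1-KO libraries were nearly equal and below Control (log2 fold change -0.15, limma adjusted p = 0.128). Epha5 and Ephb2 had log2 fold changes of -0.18 and -0.23 (limma adjusted p = 0.179 and 0.167), which were -0.03 and -0.03 against FF4 alone. Their groups barely parted. Epha5 measured 217.17 CPM in FF4 (Control) and 217.09 CPM in FCRE5 (CAP1-KO), and Ephb2 102.69 CPM in FF4 and 102.68 CPM in FCRE3. Without FF4 the values were -0.26 for Epha5, -0.17 for Epha7, -0.33 for Ephb2 and -0.28 for Ephb3 (limma adjusted p = 0.00256, 0.0282, 0.00117 and 0.0247).

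Epha4, a receptor of corticospinal axons that binds ephrins of both classes, had the highest length-scaled level of the Eph receptors and the only positive value. It measured 191 CPM in FF1, 189 in FF2 and 196 in FF4 (Control) and 209.9 CPM in FCRE3, 194 in FCRE4 and 221 in FCRE5 (CAP1-KO). FCRE4 lay among the Control libraries and the other CAP1-KO libraries above (log2 fold change 0.12, limma adjusted p = 0.258). Epha3 measured 104 CPM in FF1, 113 in FF2 and 75.7 in FF4 (Control) and 92.3 CPM in FCRE3, 77.5 in FCRE4 and 91.2 in FCRE5 (CAP1-KO), so FF4 was the lowest of the 6, and the value was -0.15 against Control, 0.19 against FF4 alone and -0.32 without it (limma adjusted p = 0.570, 0.690 and 0.0152). Ephb1, the Efnb2 receptor known from the optic chiasm, had a log2 fold change of -0.16 (limma adjusted p = 0.350), and its groups overlapped.

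Robo receptors and the Srgap proteins showed small differences. Robo1 measured 349 CPM in FF1, 357 in FF2 and 305 in FF4 (Control) and 314 CPM in FCRE3, 274 in FCRE4 and 312 in FCRE5 (CAP1-KO), with FCRE4 the lowest of the 6 (log2 fold change -0.17, limma adjusted p = 0.259). Robo2 measured 347 CPM in FF1, 354 in FF2 and 347 in FF4 (Control) and 367 CPM in FCRE3, 307 in FCRE4 and 363 in FCRE5 (CAP1-KO), where FCRE4 lay below Control and the other CAP1-KO libraries above it. Its log2 fold change of -0.02 (limma adjusted p = 0.899) turned to 0.046 with scaling to total reads and to 0.063 without FCRE4. Srgap1, Srgap2 and Srgap3 bend membranes through an F-BAR domain. Srgap3 measured 502 CPM in FF1, 509 in FF2 and 466 in FF4 (Control) and 428 CPM in FCRE3, 459 in FCRE4 and 452 in FCRE5 (CAP1-KO), without overlap (log2 fold change -0.14, SE 0.06, limma adjusted p = 0.196). For Srgap1 and Srgap2 the values were -0.16 and -0.15 (limma adjusted p = 0.230 and 0.316), and -0.01 and 0.04 against FF4 alone. Without FF4, Srgap1 was at -0.24, Srgap2 at -0.24, Srgap3 at -0.18 and Robo1 at -0.24 (limma adjusted p = 0.00579, 0.00324, 0.0161 and 0.0202).

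The comparison of the 3 CAP1-KO libraries with FF4 alone, the Control library nearest to CAP1-KO in cortical layer, striatal and interneuron markers, gave a smaller absolute difference for 34 of the 42 members. The same count over all tested genes was not made. FF4 was nearer to the CAP1-KO mean than to FF1 and FF2 for 63.8% of all tested genes and 71.4% of the members. The comparison shares its CAP1-KO libraries and FF4 with the comparison above, and the lone FF4 is assumed to vary as the CAP1-KO libraries do. FF4 had the male pattern (Xist at 2.05 CPM and the Y-linked Ddx3y at 64.1 CPM) and the CAP1-KO libraries the female one (Ddx3y at 0 to 0.0536 CPM), so genotype and sex cannot be told apart here. Among the members 0 were called higher and 0 lower (limma; 0.31% of all tested genes were called higher and 0.0864% lower), and limma-voom called 0. At an unadjusted p under 0.05 there were 1 higher, Sema5a (0.28), and 5 lower, Unc5a (-0.36), Plxna1 (-0.29), Ephb3 (-0.29), Efnb3 (-0.33) and Ntn1 (-0.41); the shares over all tested genes were 3.28% and 5.04%. The median log2 fold change of the members was -0.03 (range -0.41 to 0.28), and that of all tested genes was 0.00. FF4 lay above all CAP1-KO libraries for 18 members (42.9%; 27.9% of all tested genes), below them for 8 (19.0%; 28% of all tested genes) and within their range for 16 (38.1%). Leaving out FCRE4 here set FF4 alone against FCRE3 and FCRE5, the most alike CAP1-KO pair (chi-square per gene 5.54). The spread between libraries then came from that pair only, so no conclusion is drawn from the calls that follow. Without FCRE4, 3 members were called higher (Sema5a, Dcc and Epha3) and 4 lower (Efna3, Unc5a, Plxna1 and Efnb3), when 2.34% and 5.04% of all tested genes were called (limma).

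**Figure D3:**
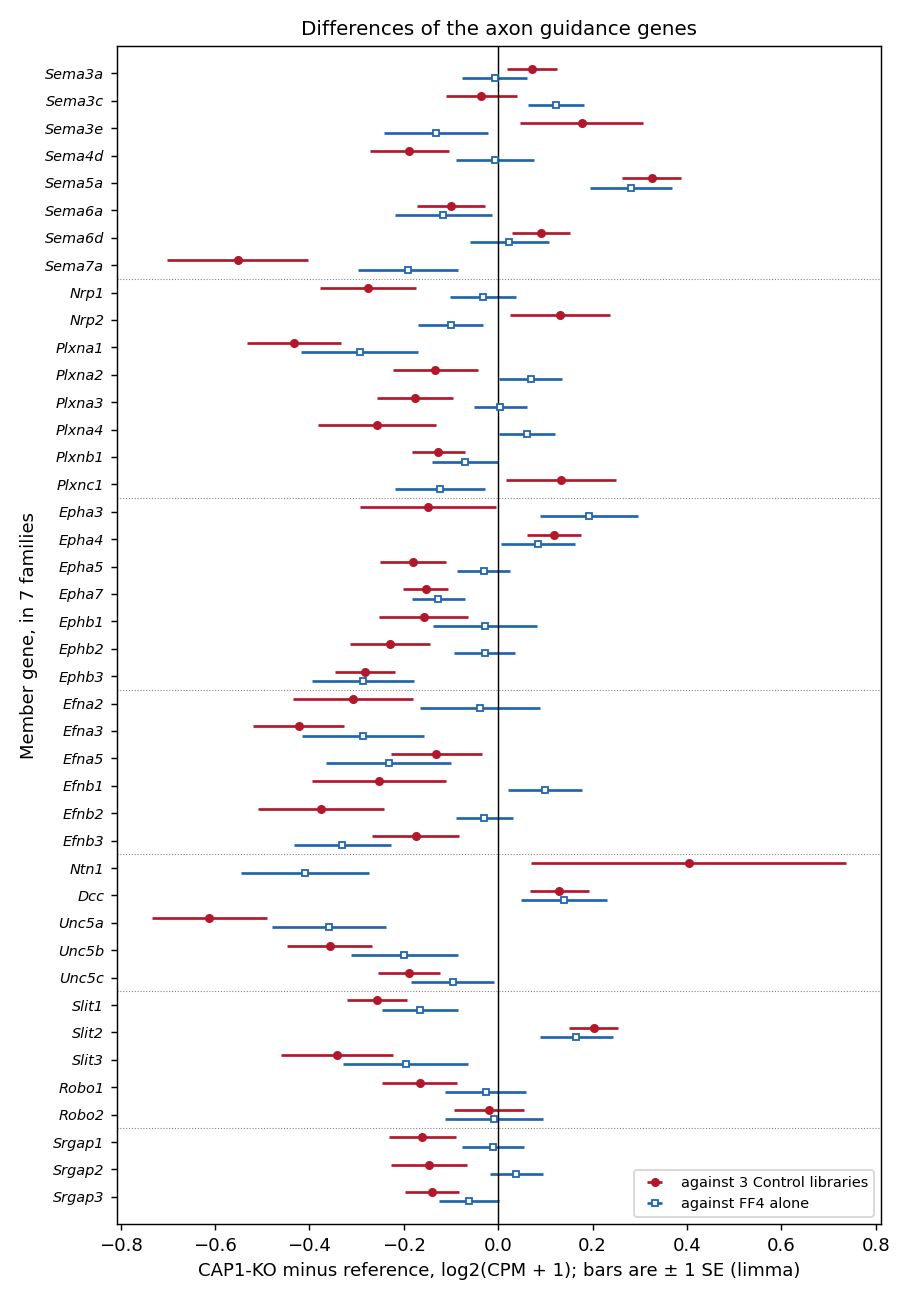
Log2 difference, on log2(CPM + 1), of CAP1-KO from the 3 Control libraries (filled circles) and from FF4 alone (open squares) for each of the 42 genes; bars are ± 1 SE from limma. Unc5a lies at -0.61 and -0.36, Sema5a at 0.33 and 0.28, and Ntn1 at 0.40 and -0.41.

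The place of FF4 among the Control libraries differed by gene. The median size of its log2 difference from the mean of FF1 and FF2 was 0.22 for the members and 0.13 for all tested genes, and it lay below both for 28 members and above both for 12 (48.4% and 34.7% of all tested genes). On the log2(CPM + 1) scale FF4 was nearer to the CAP1-KO mean than to the mean of FF1 and FF2 for 30 members (71.4%), as for 63.8% of all tested genes. Without FF4, 25 members were called lower and 6 higher (limma; 18.9% and 9.36% of all tested genes, and 59.5% and 14.3% of the members), and the median of the members was -0.24. The 6 higher members were Sema3e, Sema5a, Nrp2, Plxnc1, Ntn1 and Slit2. Of these, Sema5a and Slit2 were also higher in every CAP1-KO library than in FF4, while Sema3e, Nrp2 and Ntn1 were lower in every CAP1-KO library than in FF4, and for Plxnc1 FF4 lay within the CAP1-KO range.

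Levels between genes were compared as CPM per kilobase of annotated exon (GENCODE M21 basic, all exons of a gene joined), since the isoforms in use are not given. Over the 6 libraries Efnb3 had the highest mean at 79.5 CPM per kilobase, followed by Plxna3 at 62.7, Plxna2 at 56.3, Efnb2 at 55.6, Srgap3 at 52.6 and Nrp1 at 51.0. The ranges over the 6 libraries overlapped for each pair of neighbours among these 6 genes, and for all but 6 of the 41 neighbouring pairs of the whole order. Sema7a, at 32.8, had the highest length-scaled level of the semaphorins and Unc5a, at 16.6, that of the netrin group. The lowest were Sema3e at 1.55, Slit3 at 2.08, Ephb3 at 2.28 and Unc5b at 3.11 CPM per kilobase. Besides Efnb3 and Efnb2, the 11 highest genes were all receptors or Srgap proteins, while the secreted Slit2, Slit3, Sema3e and Ntn1 were among the 7 lowest. These cut-offs were not set beforehand. The rest of the 7 lowest were the transmembrane Sema5a and the receptors Unc5b and Ephb3. Sema7a, a ligand, ranked 12, and the secreted Sema3c, Slit1 and Sema3a ranked 19, 22 and 31.

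**Figure D4:**
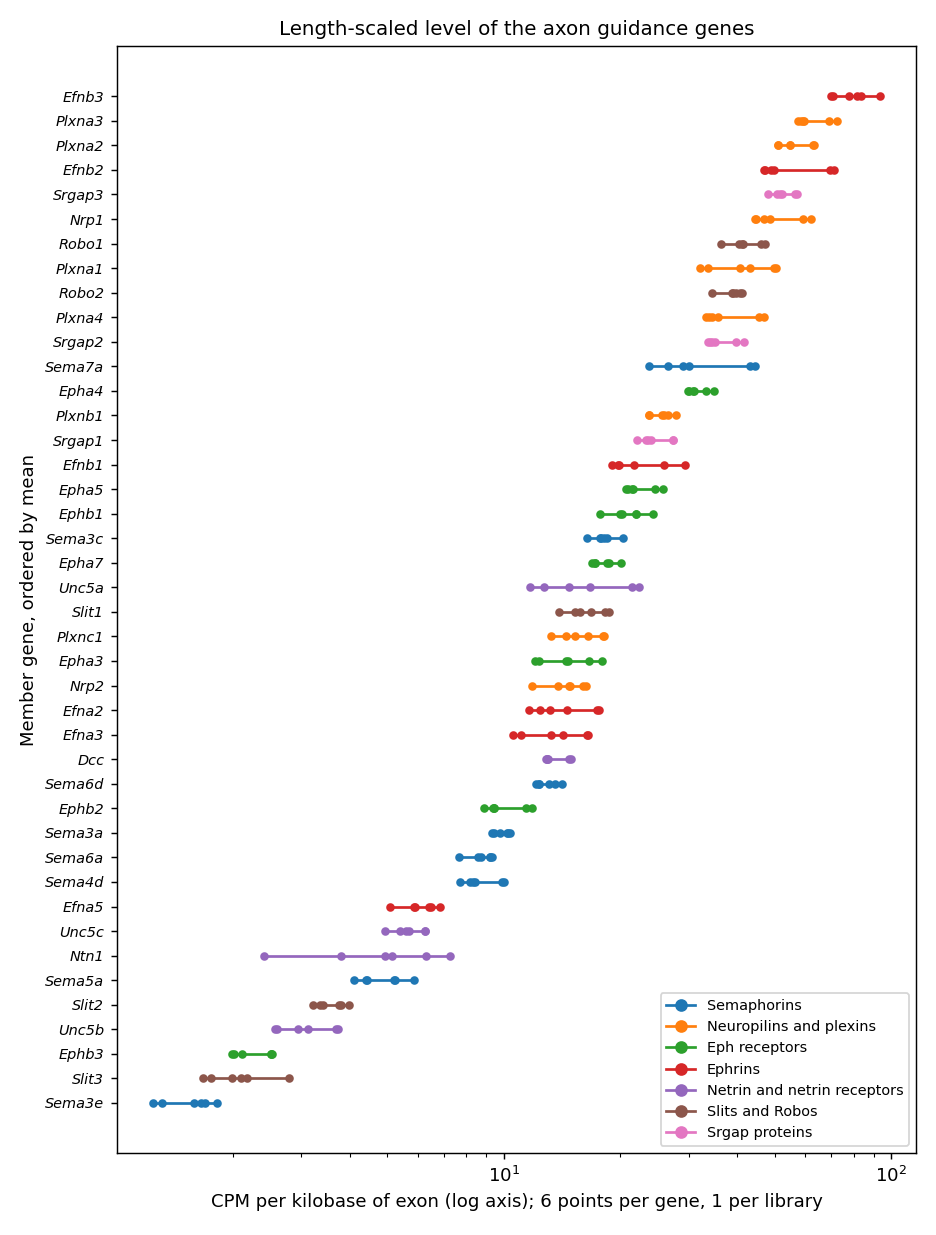
CPM per kilobase of exon (log axis) for the 42 genes, ordered by mean, with 1 point per library and a line over the range; colours mark the 7 families. Levels run from 1.55 for Sema3e to 79.5 for Efnb3, and the ranges of neighbouring genes overlap for the 6 genes at the top.

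Genes of the same pathways outside the 42 also had mostly negative values against the 3 Control libraries. The share was 72.2% for other ligands, 85.7% for other receptors and 85% for co-receptors and other cues. It was 77.6% for intracellular signalling genes and 51.7% for all tested genes. Against FF4 alone the medians were -0.09 for other ligands and -0.13 for other receptors. They were -0.002 for co-receptors and other cues and -0.002 for intracellular signalling genes. The counts and medians that follow are against all 3 Control libraries. Of 19 other ligands of these families 18 were tested (Ntn5 was below the filter), 0 were called either way, 13 were negative and the median was -0.22. Of the class 3 semaphorins in that list, Sema3f was lower (-0.38) and Sema3b higher (0.38) in CAP1-KO without overlap, neither called (limma adjusted p = 0.0886 and 0.154), while Sema3d and Sema3g overlapped; these 4 were named after their values were seen. Sema4g and Sema6c, transmembrane semaphorins with the highest CPM of that list, had Control and CAP1-KO means of 259.7 ± 22.3 CPM and 221 ± 6.37 CPM (Sema4g) and of 164 ± 25.9 CPM and 122 ± 7.42 CPM (Sema6c) (n = 3 each; limma adjusted p = 0.120 and 0.109). Of 15 other receptors 14 were tested (Epha1 was below the filter), 0 were called, 12 were negative and the median was -0.15. Neo1, a netrin and Rgm receptor, and Plxnb2 had log2 fold changes of -0.16 and -0.12. Among 20 co-receptors and other guidance cues 0 were called, 17 were negative and the median was -0.12. In that list Cntn2, an axonal adhesion molecule, measured 1115 and 1221 CPM in FF1 and FF2 but 647 CPM in FF4 and 635 to 656 CPM in CAP1-KO, while Chl1, an L1-family co-receptor, measured 888 to 1026 CPM in Control and 808 to 830.1 CPM in CAP1-KO.

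Of 59 intracellular guidance signalling genes 58 were tested (Grb7 was below the filter). Of these, 1 was called higher and 0 lower, while 0.562% of all tested genes were called higher and 0.403% lower. Negative values numbered 45 (77.6%, against 51.7% of all tested genes), and the median was -0.11. Rnd3, a protein that binds plexins, rose from 91.5 ± 9.28 CPM to 129 ± 4.66 CPM (n = 3 each; log2 fold change 0.50, SE 0.07, limma adjusted p = 0.0295). All 3 CAP1-KO libraries (125 to 134 CPM) were above all 3 Control libraries (83.2 to 102 CPM). The call was kept in 7 of 13 alternatives (limma). It was lost without FF1, FF2, FCRE3 or FCRE5 (adjusted p = 0.152, 0.0882, 0.129 and 0.168), with no filter (0.0546) and with the Xist covariate (0.0953), and the log2 fold change over these alternatives was 0.43 to 0.62. Against FF4 alone Rnd3 was not called (0.35, limma adjusted p = 0.149). There the only called gene of the list was Ngef, an exchange factor that acts behind EphA receptors, named after its values were seen: it measured 61.6 CPM in FF4 against 37.7 to 37.9 CPM in FF1 and FF2 and 37.1 to 40.8 CPM in CAP1-KO.

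In the authors' deposited table, besides Sema5a, no member had an FDR under 0.05, and 32 of 42 had a negative log2 fold change. Next came Efna3 (FDR 0.0724), Unc5a (0.0835) and Plxna1 (0.0862) in that table. Exons of 8 members overlap a gene on the opposite strand (Plxna1, Plxna4, Plxnb1, Ephb1, Efna3, Unc5a, Unc5c and Srgap3), and those of Nrp1, Plxnc1 and Srgap1 a gene on the same strand (GENCODE M21 basic). The library kit keeps strand, but the counting setting is not stated, so reads of these pairs may not be told apart.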

How the data were processed

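The members and lists were chosen with earlier results of these data known. Libraries were assigned to groups from the genotype in the column names, since the numbers in those names are not the replicate numbers in the titles. The deposited values are log2 normalized counts by library, per the file headers. The authors' own log2 fold change, mean log2 CPM, p-value, FDR and F statistic (a score) stand beside them in the deposited table. STAR, edgeR, GRCm38 and mm10 are named in the submitters' processing notes, with no versions. Read counter and annotation: not given in the sources used here. Each library shared 1 lowest value (0.0584 CPM). With it removed, all values under 2000 reads came within 0.01 of whole reads, at 31.2 to 37.3 reads per CPM.

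The design named a count test if the table held counts; it held log2 values, so limma 3.58.1 (R 4.3.3) with an intensity trend was run on log2(CPM + 1), a scale that understates changes of low genes. The filter kept genes averaging at least 1 CPM over the 6 libraries, with Benjamini-Hochberg adjustment over all 13885 genes and a threshold of 0.05. An exact permutation test of 3 against 3 libraries has a smallest p of 0.1, so calls rest on limma's moderated variance. Tested on simulated reads for CAP1-KO against Control (13885 genes), the fit recovered 67% of 100 genes changed 1.5-fold and 93% of 100 changed 2-fold, and called 12 unchanged genes. The simulated noise was independent between genes, without a joint shift of a whole library such as FF4. Changes smaller than 1.5-fold were not simulated, so recovery of such changes is not known. Values in every library are given for members that passed or that did not overlap between groups with a log2 fold change of at least 0.3, for the highest per length and the smallest difference in each family, and for X-linked members; others shown by library were chosen after their values were seen. Alternatives were other scalings, the deposited log2 values, limma-voom, no filter, a pseudocount of 0.1, the Xist level as a covariate and leaving out each library. Figures used matplotlib 3.10.9.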

Additional observations from a re-analysis of the deposited data

How the results depend on the processing

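Counts of called members rested on single libraries: leaving out 1 library at a time gave 0 to 6 members higher and 0 to 25 lower against Control, and 0 to 3 higher and 0 to 4 lower against FF4 alone (limma). FF4 and FCRE4 were the libraries whose absence gave calls. Against FF4 alone, the fit without FCRE4 held only FCRE3 and FCRE5 as CAP1-KO, so no conclusion is drawn from its calls. In 7 settings that keep all libraries, among them limma-voom, 0 members were called against Control. Over all tested genes, leaving out 1 library gave 33 to 1299 higher and 3 to 2623 lower against Control, and 52 to 325 higher and 16 to 700 lower against FF4 alone. With the Xist covariate 23 genes were higher and 3 lower, and with no filter 20 were lower against Control and 1 higher and 5 lower against FF4 alone; the cause was not tested. Of 18 members followed through 13 alternatives, Sema3c turned to 0.030 and Robo2 to 0.046 with scaling to total reads. Leaving out 1 library gave -0.11 to 0.037 for Sema3c (positive without FF1) and -0.065 to 0.063 for Robo2 (positive without FCRE4). The other 16 kept their sign. No paired analysis was possible because the numbers in the library columns are not the replicate numbers of the titles, and the groups share only 1 of them. The lowest count of a member in a library was 281 reads; what part depth or the number of libraries had in the lack of calls was not tested.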
